A study of Mus musculus with 6 samples.

Results

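Among 10 genes of cytotoxic and natural killer cells, perforin had the highest level in these CD4+ T cells, and its RNA was lower in infant than in adult mice. The genes were taken by symbol from a count table of 52997 genes and are Prf1, Gzma, Gzmb, Nkg7, Ccl5, Eomes, Klrd1, Klrk1, Klrg1 and Cd160. All 10 were found in the table. The study sequenced polyadenylated RNA of CD4+ T cells from pooled lymph nodes of 3 infant mice, 10 days old, and 3 adults, 7 weeks old, with 1 mouse and 1000 cells, sorted through the gate a second time, per library. Every mouse was of the Foxp3-GFP strain on the C57BL/6 background, in which Foxp3-expressing regulatory T cells carry a green fluorescent reporter, and the labels name no other allele and no treatment. The submitters describe the cells as naive and title the libraries Tconv, read here as conventional T cells. Which surface markers the sort used is not stated in the labels.

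Cytotoxic lymphocytes, that is natural killer (NK) cells and CD8+ effector T cells, kill by releasing granules onto a target cell. Perforin opens the target's membrane and granzymes, which are serine proteases, enter through it and start cell death. Activating and inhibitory receptors of the killer-cell lectin-like family are among those that control whether the granules are released. The T-box transcription factors Eomes and T-bet, together with RUNX factors, are known to drive the genes of this program. Naive CD4+ T cells are helper cells that have not met antigen, and they are not known as killers.

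The libraries held 3421253 to 4887371 counts, and 3 counts corresponded to 0.628 to 0.852 CPM (counts scaled to a common library size, over the tested genes and with trimmed-mean factors). This limit covers counting error only, and PCR copies were counted along with their originals. Adult replicate 2 stood apart: 36373 genes had a count there, and 17992 to 21840 in each of the remaining 5 libraries. Over 10907 untested autosomal protein-coding genes it held 1.85 counts per kb of exon, against 0.185 to 0.349 in the others. Results that rest on this library are given with and without it, or with the counts of each library. The cells carried the RNA of CD4+ T cells, with 5269 to 6003 CPM summed over 8 genes such as Cd4 and Cd3e. The NK markers Ncr1, Klra4 and Klra8 had 0 counts in all 6 libraries, whereas other NK markers had some. The counts of Klra4 and Klra8 are uncertain, since the handling of reads with several matches is not stated. Klrb1c had 0, 18 and 2 counts in the adult and 0 in each infant library. Klre1 and Fcer1g each had 5 counts in adult replicate 2, 1 in infant replicate 3 and 0 elsewhere, and Tyrobp had 0 to 4 counts. The labels give 1 mouse per library and no batch, sex or date. The p-values measure the spread between these 3 libraries a group, in which mouse and technical differences cannot be told apart.

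The promoters of Prf1, which had the largest change of the 3 genes that could be tested, and of Cd160, the tested gene of opposite sign, are shown because RUNX, T-box and ETS factors are known regulators of killer-cell genes. Of the 10 genes, 7 had a promoter in the RefSeq table (GRCm38.p6), and Klrd1, Ccl5 and Klrg1 had none there. Each sequence runs 5′ to 3′ on the gene's strand and ends 11 bases before the start site. Capitals mark the letters TGTGGT (RUNX core), GGTGTG (T-box core) and GGAAGT (ETS core) on either strand. Prf1 is on the plus strand at chr10:61297586-61297825, and Cd160, on the minus strand, has a distal start (chr3:96829362-96829601) and an internal one (chr3:96814532-96814771).
Prf1: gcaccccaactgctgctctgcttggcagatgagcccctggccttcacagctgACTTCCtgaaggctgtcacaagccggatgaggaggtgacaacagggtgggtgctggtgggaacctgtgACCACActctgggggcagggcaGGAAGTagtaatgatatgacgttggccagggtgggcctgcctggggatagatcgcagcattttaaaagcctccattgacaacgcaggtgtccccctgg
Cd160 distal: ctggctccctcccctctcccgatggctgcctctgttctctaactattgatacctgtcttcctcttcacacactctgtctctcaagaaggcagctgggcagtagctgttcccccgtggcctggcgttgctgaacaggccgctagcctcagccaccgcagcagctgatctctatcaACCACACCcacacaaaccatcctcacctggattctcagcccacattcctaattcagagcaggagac
Cd160 internal: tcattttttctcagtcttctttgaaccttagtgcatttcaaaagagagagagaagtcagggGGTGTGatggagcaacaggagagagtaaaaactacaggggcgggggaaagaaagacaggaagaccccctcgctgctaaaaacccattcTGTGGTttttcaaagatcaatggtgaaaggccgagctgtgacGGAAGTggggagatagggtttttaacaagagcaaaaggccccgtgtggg

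The Prf1 window held 1 RUNX and 2 ETS matches and 0 T-box matches. Both Cd160 windows held 1 RUNX and 1 T-box match each, which share letters in the distal window, and the internal window also held 1 ETS match. Among all 32851 promoter windows of 240 bases, 13.6% held the RUNX core, 15.7% the T-box core and 18.7% the ETS core, so such letters are common. A match describes the sequence and no binding was measured.

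Prf1 encodes perforin and lies on chromosome 10 (61297833 to 61304680, mm10). Its RNA was at 79.0, 83.5 and 91.7 CPM in the adult and 29.1, 17.2 and 23.7 CPM in the infant libraries. Every infant value lay far below every adult value, with 79.0 CPM in the lowest adult and 29.1 CPM in the highest infant library. Groups that did not overlap in either direction were seen in 22.8% of tested genes. The means were 84.7 ± 6.40 CPM (SD, n = 3) in adult and 23.3 ± 5.97 CPM (n = 3) in infant cells, 3.62-fold lower at the younger age (log2 fold change −1.86 ± 0.19, SE; adjusted p = 7.34e-05, edgeR quasi-likelihood test with Benjamini-Hochberg adjustment over 11681 genes). By p-value it ranked 17 among all genes tested, of which 3.64% passed an adjusted p of 0.05 and 2.11% passed as lower in infant cells. The change passed whichever library was left out, with log2 fold changes of −2.05 to −1.68 and edgeR adjusted p of at most 0.00171. In bulk RNA, fewer cells that express a gene and less RNA per cell cannot be told apart.

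Scaled to length, Prf1 was not a trace transcript. With 32.8 CPM per kb of exon it lay above 86.1% of tested genes in adult cells, and with 9.02 CPM per kb above 55.0% in infant cells. It made up 63.6% to 82.0% of the counts of all 10 genes in adult and 48.0% to 58.4% in infant libraries. Summed over the 10 genes, the level was 113, 131 and 112 CPM in adult and 49.8, 35.8 and 42.7 CPM in infant libraries. Prf1 carried most of that gap: the infant minus adult difference of the sum was −75.8 CPM with it and −14.4 CPM without it.

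**Figure D1:**
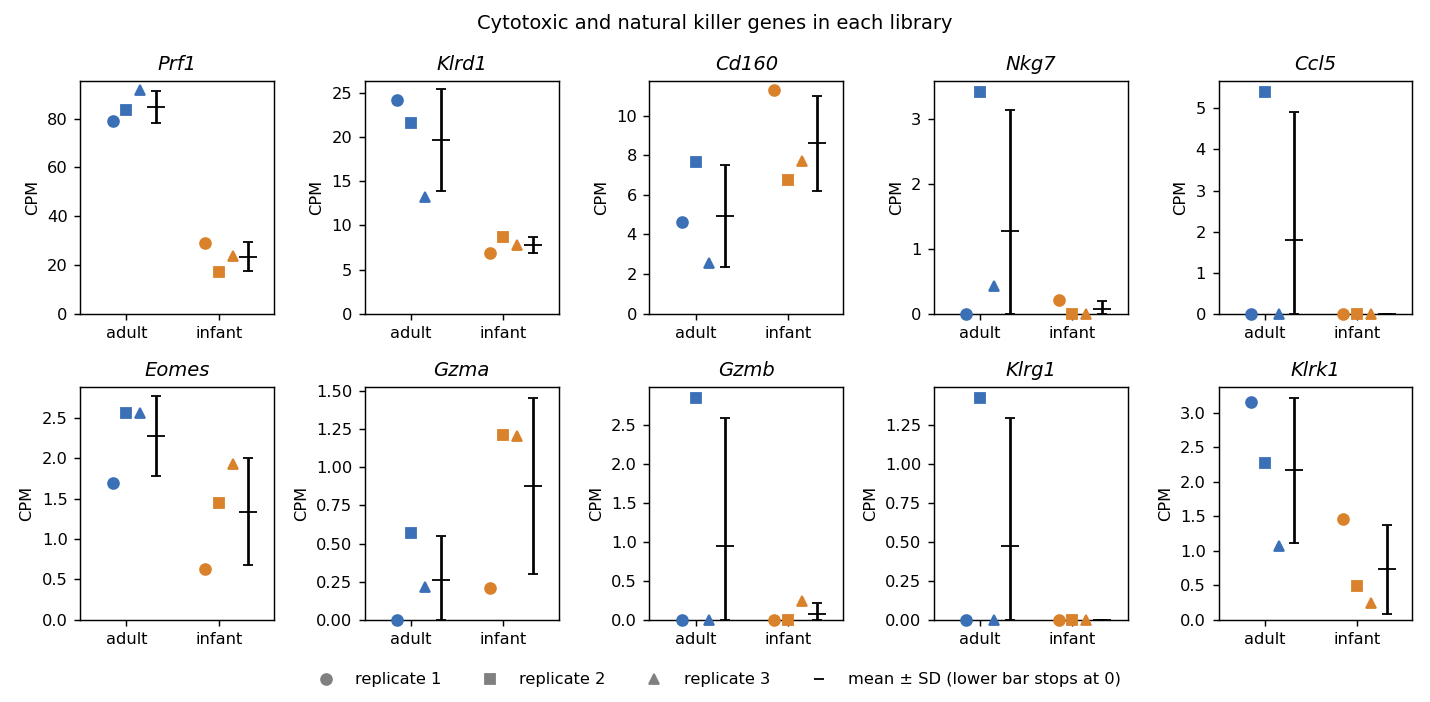
CPM (vertical axis, from 0, a different range per gene) of the 10 genes in each of the 3 adult (blue) and 3 infant (orange) libraries, with mean and SD beside the points. Prf1 and Klrd1 separate by age without overlap, as 22.8% of tested genes do in either direction. Nkg7, Ccl5, Gzmb and Klrg1 stand above 1 CPM in adult replicate 2 alone.

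The granule proteases that act with perforin were near the limit of detection. Gzma, which encodes granzyme A (chromosome 13, 113093825 to 113100981), had 0, 2 and 1 counts in the adult and 1, 5 and 5 counts in the infant libraries. Gzmb, which encodes granzyme B (chromosome 14, 56258838 to 56262260), had 0, 10 and 0 counts in the adult and 0, 0 and 1 counts in the infant libraries. Apart from the 10 counts in adult replicate 2 and the 5 counts of Gzma in each of infant replicates 2 and 3, no library held more of either gene than 2 counts. Neither gene passed the filter on low counts, and their CPM overlapped between the ages (p = 0.3 for Gzma and p = 1 for Gzmb, two-sided exact permutation test, n = 3 a group, 0.1 being the smallest p possible). A difference in either granzyme could therefore not be judged from these counts.

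Nkg7, a membrane protein of cytotoxic granules (chromosome 7, 43437073 to 43438249), had 0, 12 and 2 counts in the adult and 1, 0 and 0 counts in the infant libraries. Ccl5 encodes a chemokine that effector and memory T cells store and release (chromosome 11, 83525778 to 83530518). It had 19 counts in adult replicate 2 and 0 in the other 5 libraries. Klrg1, an inhibitory receptor of terminally differentiated effector cells (chromosome 6, 122270596 to 122282882), likewise had 5 counts in adult replicate 2 and 0 elsewhere. Thus 4 of the 10 genes, Nkg7, Ccl5, Gzmb and Klrg1, had fewer than 3 counts in each library but adult replicate 2, and no statement on age can be made from them.

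In that library the counts of these genes differed in how far they stood above its background of 1.85 counts per kb of exon. Ccl5 was at 19.8 counts per kb, a density that 0.0917% of the 10907 untested genes reached in the same library. Nkg7 was at 13.1 counts per kb, reached by 0.385%, and Gzmb at 6.96 counts per kb, reached by 2.44%. Klrg1 was at 3.54 counts per kb, reached by 15.1% of untested genes, so it did not stand out there. The granzyme gene Gzmk, also a product of memory and effector cells, had 14 counts in adult replicate 2, 2 in infant replicate 2 and 0 in the other 4 libraries. The part of other cells in these counts was not tested.

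**Figure D2:**
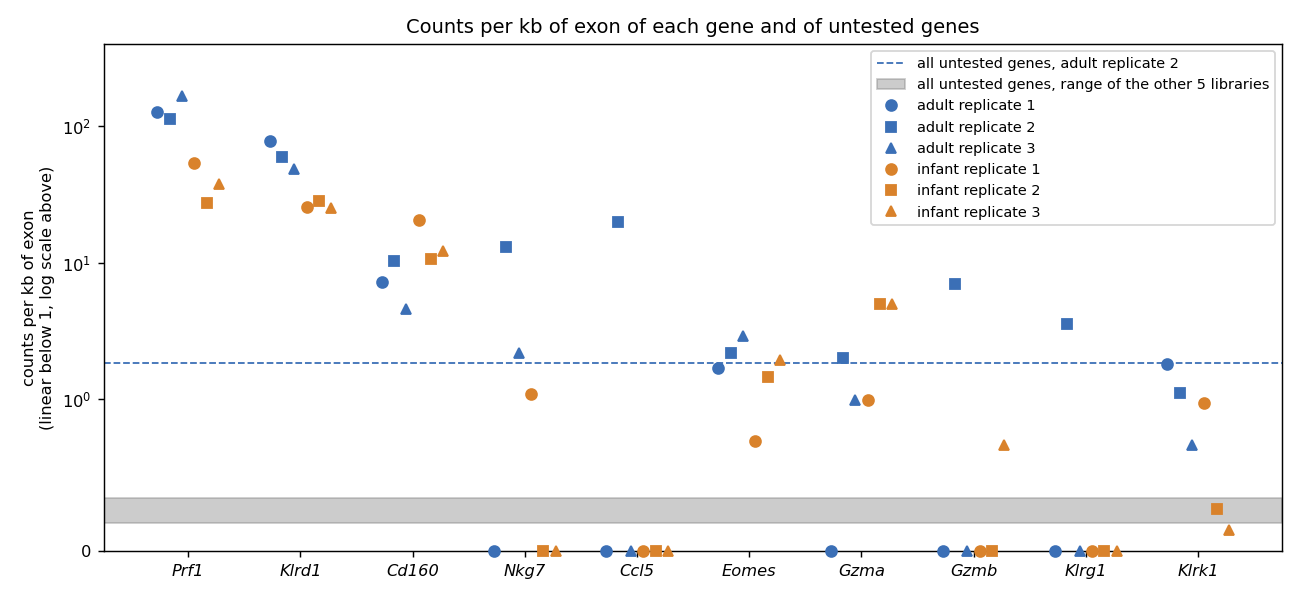
Counts per kb of exon (vertical axis, linear below 1 and logarithmic above) of the 10 genes in each library, with the density over untested genes in adult replicate 2 (dashed line) and its range in the other 5 libraries (grey band). Prf1, Klrd1 and Cd160 lie above the dashed line in all 6 libraries, whereas Eomes and Gzma lie near it in adult replicate 2 and Klrk1 lies below it there. In infant replicates 2 and 3 Gzma is at 4.97 counts per kb, against backgrounds of 0.255 and 0.349.

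Klrd1, which encodes CD94 (chromosome 6, 129591782 to 129598775), pairs with NKG2 chains to form a receptor for the non-classical class I molecule Qa-1. It was at 24.2, 21.6 and 13.2 CPM in the adult and 6.91, 8.71 and 7.73 CPM in the infant libraries. The groups did not overlap, as in 22.8% of tested genes in either direction, and adult replicate 3 lay closest to the infant values. The means were 19.7 ± 5.74 and 7.78 ± 0.900 CPM (SD, n = 3 each), 2.52-fold lower at the younger age (log2 fold change −1.33 ± 0.31, edgeR adjusted p = 0.0255). The call did not hold without any 1 library other than adult replicate 3 (edgeR adjusted p = 0.138 and 0.0593 when adult replicate 1 or 2 was left out, and 0.109, 0.0900 and 0.0932 when infant replicate 1, 2 or 3 was), while the log2 fold change stayed between −1.56 and −1.15. It was also lost with limma-voom (adjusted p = 0.0514).

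The partners of CD94 were at or near 0. Klrc1 and Klrc2, which encode NKG2 chains, had 1 and 2 counts in adult replicate 2 and 0 in the other 5 libraries, and Klrc3 had 0 counts in all 6. How reads with several matches were counted is not stated, so the low counts of these genes are uncertain. The ligand was abundant: H2-T23, which encodes Qa-1, was at 888 ± 41.9 CPM in adult and 665 ± 25.4 CPM in infant cells (n = 3 each), and it fell with a log2 fold change of −0.42 ± 0.09 (edgeR adjusted p = 0.0228). The call for H2-T23 held without adult replicate 2 and was lost without any other single library (edgeR adjusted p at most 0.135).

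Cd160 encodes a receptor of NK cells, CD8+ T cells and intraepithelial lymphocytes that binds the herpesvirus entry mediator, the product of Tnfrsf14. Its gene lies on chromosome 3 (96798763 to 96829351). It was at 4.61, 7.67 and 2.56 CPM in the adult and 11.3, 6.77 and 7.73 CPM in the infant libraries. The groups overlapped: adult replicate 2 lay above infant replicate 2. The difference of 0.82 ± 0.46 on the log2 scale (SE, n = 3 each) did not pass (edgeR adjusted p = 0.399), nor did it without any single library (log2 fold change 0.50 to 1.27, adjusted p at least 0.178). Without adult replicate 2 it was 1.27 ± 0.48. Of its exon bases 68 are shared with Pdzk1 on the opposite strand, a gene with 7 counts in adult replicate 2 and 0 in the others. Tnfrsf14 itself was at 111 ± 2.74 and 121 ± 16.3 CPM (log2 fold change 0.12 ± 0.13, adjusted p = 0.706).

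Klrk1 encodes NKG2D, an activating receptor for stress-induced ligands, and lies near Klrd1 on chromosome 6 (129610323 to 129623864). It had 13, 8 and 5 counts in the adult and 7, 2 and 1 counts in the infant libraries, or 2.16 ± 1.05 and 0.730 ± 0.648 CPM (n = 3 each). The groups overlapped through infant replicate 1 (exact permutation test, two-sided p = 0.2). The 8 counts of adult replicate 2 lay under the 13.3 that its background density would give over the 7183 bases of exon of this gene. In adult replicates 1 and 3 the 13 and 5 counts lay above the 1.33 and 1.47 that their backgrounds would give. In infant replicates 1, 2 and 3 the backgrounds would give 1.92, 1.83 and 2.51, beside 7, 2 and 1 counts. Hcst, which encodes the adaptor DAP10 through which NKG2D signals, was at 117 ± 16.9 and 96.7 ± 7.88 CPM (−0.28 ± 0.14 on the log2 scale, edgeR adjusted p = 0.329). The NKG2D ligand gene H60b was at 30.3 ± 3.59 and 38.5 ± 14.7 CPM (adjusted p = 0.534), and the other tested ligand gene, Ulbp1, at 13.0 ± 3.49 and 6.58 ± 3.12 CPM (−0.99 ± 0.39, adjusted p = 0.193).

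Eomes, a T-box transcription factor of NK and memory CD8+ T cells (chromosome 9, 118478212 to 118486132), had 7, 9 and 12 counts in the adult and 3, 6 and 8 counts in the infant libraries. At 2.27 ± 0.498 and 1.34 ± 0.659 CPM (n = 3 each) the groups overlapped (exact permutation test, two-sided p = 0.2). In adult replicate 2 it lay at 2.17 counts per kb, near that library's background, but in adult replicates 1 and 3 at 1.68 and 2.89 counts per kb, against backgrounds of 0.185 and 0.204. Tbx21, which encodes T-bet, had 0, 4 and 2 counts in the adult and 0, 13 and 6 counts in the infant libraries. Of the exon bases of Eomes 118 are shared with the antisense gene Gm33460, which had at most 3 counts in any library.

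Ordered by adult level per kb of exon, Prf1 (32.8 CPM per kb) stood above Klrd1 (15.4), and both stood well above Ccl5 and Cd160 (1.87 each), Nkg7 (1.40), Gzmb (0.659), Eomes (0.547), Klrg1 (0.335), Klrk1 (0.301) and Gzma (0.259). The places of Ccl5, Nkg7, Gzmb and Klrg1 in this order rest on adult replicate 2. In adult replicates 1 and 3 Ccl5, Gzmb and Klrg1 had 0 counts, and Nkg7 had 0 and 2. In infant cells Prf1 (9.02), Klrd1 (6.07) and Cd160 (3.26 CPM per kb) again led, followed by Gzma (0.870), Eomes (0.322) and Klrk1 (0.102). Of the 10 genes 3 had at least 10 counts in every library and were tested, namely Prf1, Klrd1 and Cd160. Of these, 2 were lower in infant cells and 0 higher, where 2.11% and 1.52% of all tested genes were so called. In a fit without any filter none of the other 7 passed (edgeR adjusted p from 0.326 for Ccl5 to 0.781 for Eomes, with log2 fold changes that depend on the prior count for genes at 0).

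**Figure D3:**
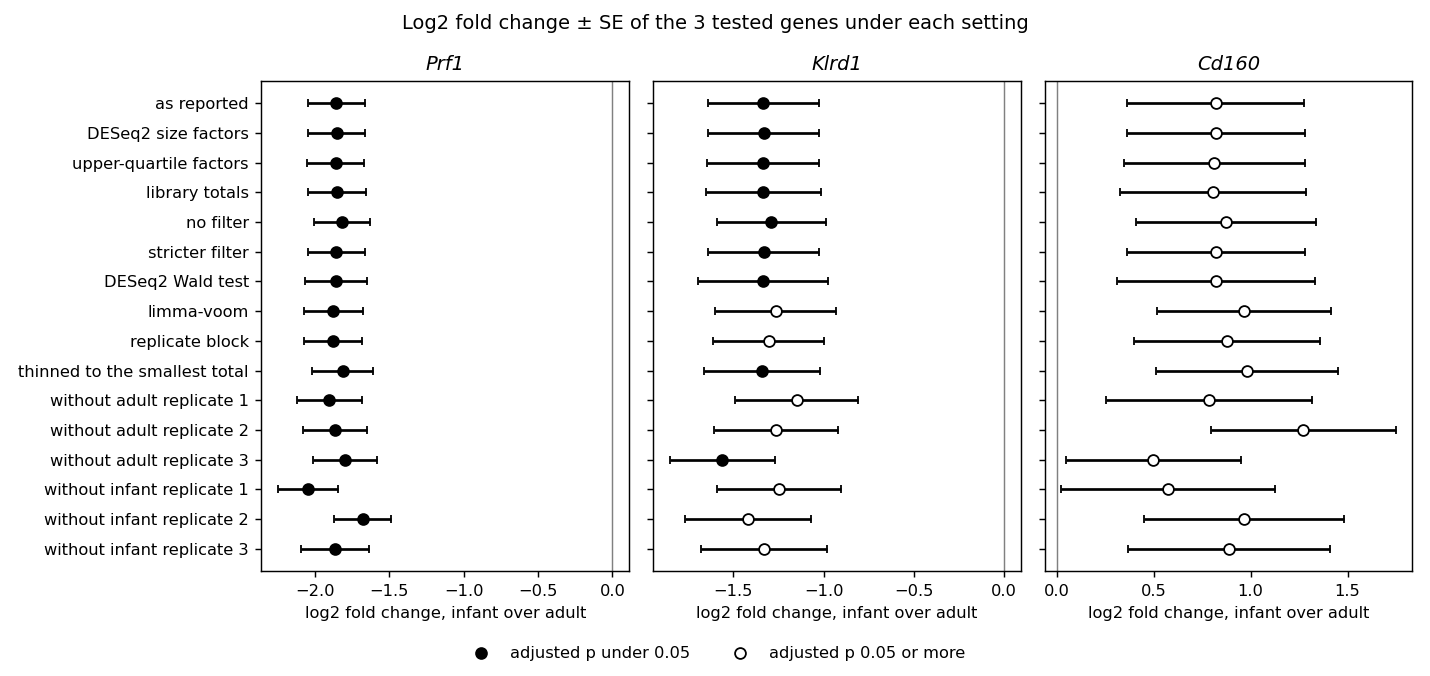
Log2 fold change, infant over adult (horizontal axis), with SE for Prf1, Klrd1 and Cd160 under each setting and with each library left out; filled points passed an adjusted p of 0.05. All points of Prf1 are filled and lie between −2.05 and −1.68, most points of Klrd1 without 1 library are open, and all points of Cd160 are open.

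Around these 10 genes, 90 further genes of the cytotoxic program were followed in 7 lists, of which 36 were tested. Of these 2 fell, 2 rose and 32 did not pass, where 3.64% of all tested genes passed, with a median log2 fold change of −0.11, beside −0.0017 over all 11681 genes. Among 12 other granule effectors and death ligands 4 were tested and 0 passed (edgeR; 0 at an unadjusted p of 0.05, and 0 with DESeq2 or limma-voom). Ctsw, a cathepsin of cytotoxic cells, was at 154 ± 43.5 CPM in adult and 180 ± 19.1 CPM in infant cells (log2 fold change 0.22 ± 0.17), and Srgn, the proteoglycan that packs granule proteins, at 131 ± 23.3 and 137 ± 6.60 CPM (0.065 ± 0.14). The death ligand Fasl was at 19.5 ± 2.23 and 21.5 ± 10.0 CPM. Of the remaining granzyme genes Gzme and Gzmg had 0 counts in all 6 libraries, and Gzmc and Gzmm had at most 10. Single granzyme genes are uncertain here, since the handling of reads with several matches is not stated.

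Of 14 listed genes that ripen and release granules or inhibit granzymes, 13 had enough RNA to be tested. Granules themselves were not measured. Of 13 tested genes 1 rose, 0 fell and 12 did not pass. The gene that rose was Cst7, which encodes cystatin F, an inhibitor of the cathepsins that activate granzymes: it had 12.7 ± 0.595 CPM in adult and 24.8 ± 3.44 CPM in infant cells (0.96 ± 0.23 on the log2 scale, edgeR adjusted p = 0.0358), against 1.52% of genes called higher in infant cells. Its call was lost without any 1 of the 6 libraries (adjusted p from 0.0534 to 0.155), with a log2 fold change of 0.84 to 1.02. Unc13d, which primes granules for fusion, was at 193 ± 12.2 and 226 ± 16.9 CPM (0.23 ± 0.11, adjusted p = 0.307), and Ctsc, the protease that activates granzymes, at 118 ± 14.7 and 105 ± 11.7 CPM (−0.16 ± 0.14, adjusted p = 0.604).

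Among 23 NK receptor genes, 20 were too low to test, and 15 of these had at most 2 counts in each library but adult replicate 2. That library held 115 counts over the 20 genes, against 6 to 47 in the others. Klrb1c, which encodes the NK1.1 antigen, had 0, 18 and 2 counts in the adult and 0 in each infant library. Fcgr3, an Fc receptor of NK and myeloid cells, rose from 2.26 ± 0.760 to 8.13 ± 1.44 CPM (1.85 ± 0.48 on the log2 scale, edgeR adjusted p = 0.0461). Its call held without adult replicate 2 and was lost without any other single library (adjusted p up to 0.224). Over the myeloid markers Lyz2, Csf1r, Itgam, Cd14, Fcgr1, Adgre1 and Cst3, the summed level was 53.3 to 86.7 CPM in adult and 53.2 to 74.7 CPM in infant libraries, most of it Cst3. Lyz2, Cd14 and Fcgr1 had at most 4 counts in any library. Itgam, an integrin chain of myeloid and NK cells, was at 6.71 ± 1.74 CPM in adult and 11.7 ± 2.08 CPM in infant cells, without overlap (0.80 ± 0.35, edgeR adjusted p = 0.257). All infant values lay above all adult values in 11.2% of tested genes. The part of myeloid cells in the change of Fcgr3 was not tested.

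Among 5 tested transcription factors of cytotoxic lymphocytes 0 passed in edgeR, whereas 4 had an unadjusted p under 0.05, DESeq2 called 3, limma-voom called 0 and edgeR called 2 without adult replicate 2. Stat4, which transmits interleukin 12 signals, was at 96.0 ± 8.95 CPM in adult and 65.8 ± 9.51 CPM in infant cells (−0.55 ± 0.15 on the log2 scale, edgeR adjusted p = 0.0555; 0.0379 without adult replicate 2 and 0.125 to 0.222 without each of the other libraries). Runx3, a driver of the CD8+ and cytotoxic programs, was at 63.5 ± 8.88 and 58.5 ± 8.68 CPM (−0.12 ± 0.16, adjusted p = 0.776). Id2 and Prdm1 were lower in every infant than in every adult library, as were 11.6% of tested genes, and did not pass. Id2, an inhibitor of E proteins, had a log2 fold change of −0.75 ± 0.21 (edgeR adjusted p = 0.0719). Prdm1, which encodes Blimp-1, had one of −1.09 ± 0.36 (adjusted p = 0.121). Id2, Prdm1 and Zfp683 were chosen after their values were seen. Zfp683 encodes Hobit, a factor of tissue-resident and innate-like lymphocytes. It had 1, 9 and 3 counts in the adult and 30, 23 and 20 counts in the infant libraries (2.31 ± 0.69 on the log2 scale, edgeR adjusted p = 0.0812; 3.54 and adjusted p = 0.0143 without adult replicate 2, and 0.208 to 0.288 without each of the other libraries).

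Of the receptor adaptors and kinases 3 of 8 were tested and 0 passed (edgeR; 0 at an unadjusted p of 0.05, and 0 with DESeq2 or limma-voom). Zap70, the kinase of the T cell receptor that NK receptors also use, was at 451 ± 20.3 and 464 ± 22.97 CPM, whereas Tyrobp, the adaptor DAP12 of NK receptors, had at most 4 counts in any library. Among cytokines, chemokines and their receptors 3 of 13 were tested and 1 fell: Il18r1, a chain of the interleukin 18 receptor, went from 50.6 ± 5.44 to 26.7 ± 2.84 CPM (−0.92 ± 0.18 on the log2 scale, edgeR adjusted p = 0.0106). It no longer passed when infant replicate 2 or 3 was left out (adjusted p = 0.0643 and 0.0566). The effector cytokine gene Ifng and the chemokine gene Ccl3 had 0 counts in all 6 libraries.

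**Figure D4:**
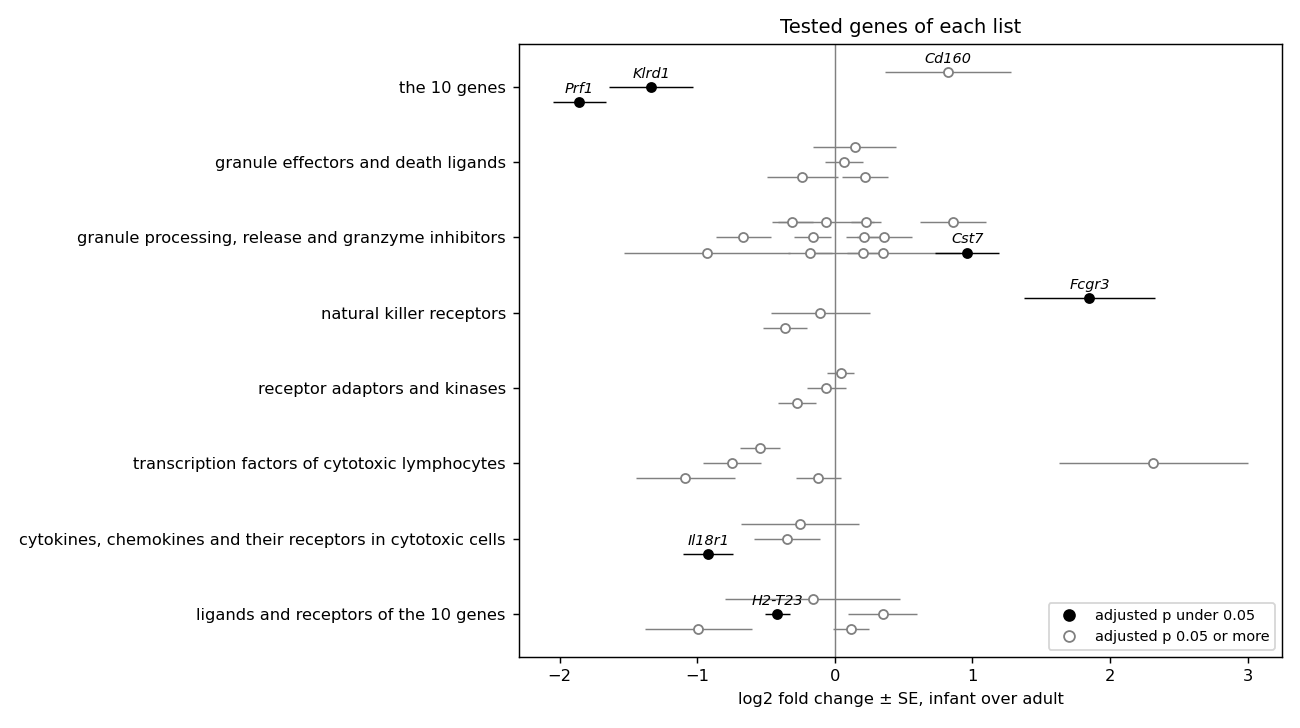
Log2 fold change, infant over adult, with SE (horizontal axis) for the tested genes of the 10-gene set and of the 7 further lists; filled black points passed an adjusted p of 0.05 and are named. Prf1 and Klrd1 lie furthest to the left, while 32 of the 36 genes of the other lists are open.

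Levels of other cells' markers were compared beside the fall of Prf1 and Klrd1. The 7 NK markers summed to 0.242, 7.96 and 1.28 CPM in the adult and 0.838, 0.726 and 0.966 CPM in the infant libraries. Outside adult replicate 2 these sums rest on a few counts a library, mostly of Tyrobp. The part of NK cells in the fall of Prf1 and Klrd1 was not tested. Without adult replicate 2 the log2 fold change of Prf1 was −1.87 ± 0.21. Of the CD8+ T cell genes, Cd8a had at most 8 counts in any library and Cd8b1 was at 33.6 ± 2.93 and 35.3 ± 4.31 CPM (0.068 ± 0.18 on the log2 scale, edgeR adjusted p = 0.900). Of the markers of NKT and innate-like T cells, Il18r1 fell with Prf1, from 50.6 ± 5.44 to 26.7 ± 2.84 CPM, without overlap between the ages. All infant values lay below all adult values in 11.6% of tested genes, and above them in 11.2%. The defining gene Zbtb16 had 7 counts in adult replicate 2 and 0 in the other 5 libraries. The part of such cells in the fall of Prf1 was not tested. The gamma-delta T cell gene Trdc was at 4.81 ± 0.855 and 3.52 ± 1.81 CPM (−0.45 ± 0.53, adjusted p = 0.730). The 6 memory markers summed to 83.8 to 95.7 CPM in adult and 79.0 to 103 CPM in infant libraries, and none passed. Cd44, which is high on memory T cells, was at 38.05 ± 6.57 and 49.5 ± 11.5 CPM (0.38 ± 0.20, edgeR adjusted p = 0.365). Itgb1, an integrin chain, was at 17.8 ± 5.16 and 10.2 ± 1.29 CPM without overlap (−0.80 ± 0.29, adjusted p = 0.172). Ly6c2 was without overlap in the other direction, at 2.07 ± 0.705 and 3.76 ± 0.749 CPM (0.86 ± 0.55, adjusted p = 0.472). S100a4 had 0 counts in all 6 libraries. The Trgc genes were not analysed here.

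The genes whose level most followed the summed level of the 10 genes over the 6 libraries were Mib2 (Pearson r = 0.999 of log2 CPM), Rabac1 (0.997), Acadl (0.993), Lrig1 (0.991) and Gsdmd (0.989). Prf1 made up 48.0% to 82.0% of that sum. This likeness rests on 6 libraries that fall into 2 age groups and is a description. A gene picked by it will tend to differ by age, so the adjusted p-values below show no link to the 10 genes. Gsdmd encodes gasdermin D, a pore-forming protein of inflammatory cell death. It was at 150, 165 and 162 CPM in the adult and 107, 101 and 104 CPM in the infant libraries (−0.61 ± 0.11 on the log2 scale, edgeR adjusted p = 0.00841). Acadl encodes an acyl-CoA dehydrogenase of mitochondrial fatty acid oxidation and had a log2 fold change of −1.04 ± 0.14 (adjusted p = 7.05e-04).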

How the data were processed

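The submitters' processing notes name STAR 2.5.4, featureCounts and the build mm10. Library preparation with oligo(dT) priming and Nextera XT, per the labels' protocols, does not mark strand and used paired reads of 25 bases. The deposited file gives raw counts for each symbol in the 6 libraries, with 0 columns of other samples. How reads with several matches were counted is not stated, so single members of the granzyme and lectin-like families are uncertain.

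The edgeR 4.0.16 quasi-likelihood test (R 4.3.3) ran on the genes that filterByExpr kept (minimum count 10, total 15), with TMM factors and adjustment over all 11681 genes. SE is the absolute log2 fold change over the square root of F. For CPM, the counts of tested genes were summed and multiplied by the TMM factor. Exon lengths and positions came from GENCODE M21 (GRCm38). The fit was tested on simulated data.

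The members, lists and alternatives were chosen with earlier results of these data known. Named genes were the 10 members, the genes of each list past an adjusted p of 0.05 or else its 2 of highest level, the genes that define a cell type, and the 5 genes of at least 20 CPM most correlated with the summed level (log2 of CPM + 1). Other genes were picked after their values were seen, to give partners, ligands and undetected members. Alternatives used DESeq2 1.42.0 and limma 3.58.1, other scalings and filters, a replicate block, thinning and leaving out each library.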

Additional observations from a re-analysis of the deposited data

How the results depend on the processing

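The count of 425 changed genes ranged from 139 to 488 when 1 library was left out. It was 326 with the replicate number as a replicate block. Same-numbered libraries did not deviate together (r = −0.057, −0.0072 and −0.10). With 3 libraries a group this cannot exclude a pairing of the mice, and the labels name none. Prf1 passed under all 9 other settings, Klrd1 under 7 of 9 (lost with limma-voom, adjusted p = 0.0514, and with the replicate block, adjusted p = 0.0550), and Cd160 under 0 of 9. The infant minus adult gap of the summed level moved from −75.8 to −14.4 CPM without Prf1, and ran from −79.3 to −69.4 CPM with 1 library left out. Granule effectors and death ligands had 0 called genes under all settings; the counts of the other lists changed under some. Granule processing went from 1 to 2 with no filter or the DESeq2 test and to 0 with the replicate block, with thinning and without each library. NK receptors went from 1 to 0 with library totals, no filter, limma-voom or the block, and to 0 to 1 without 1 library. Ligands and receptors went from 1 to 0 with no filter and to 0 to 1 without 1 library, as did cytokines and chemokines without 1 library. Adaptors went from 0 to 1 with no filter. Transcription factors went from 0 to 3 with the DESeq2 test, 1 with no filter or thinning, and 0 to 2 without 1 library. The cause of these moves was not tested. The 7 untested genes had few counts, and 3 counts corresponded to 0.628 to 0.852 CPM. Eomes was at 1.70 to 2.56 CPM in adult and 0.628 to 1.93 CPM in infant libraries. Klrk1 was at 1.07 to 3.15 CPM in adult and 0.242 to 1.47 CPM in infant libraries, so both genes overlapped between the ages. Ccl5 and Klrg1 had counts in adult replicate 2 alone. Whether more depth would separate the ages was not tested.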

Other observations

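Cd8b1, the beta chain of the CD8 coreceptor, had 108 to 171 counts in every library while Cd8a, the alpha chain with which it pairs at the cell surface, had 0 to 8. Lamp1, a lysosome and granule membrane protein that marks degranulation, varied within each age more than between ages, with 278, 109 and 76 counts in the adult and 59, 150 and 406 counts in the infant libraries (0.35 ± 0.55 on the log2 scale, edgeR adjusted p = 0.812). Crtam, an adhesion receptor known from CD4+ T cells that turn cytotoxic, had 84, 58 and 279 counts in the adult and 134, 129 and 130 counts in the infant libraries (−0.11 ± 0.36, adjusted p = 0.923), so adult replicate 3 stood above the other 5. These genes were chosen after their values were seen.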
